A study of Rattus norvegicus with 18 samples.

Results

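The genes described here are those of the rat major histocompatibility complex (MHC), which is named RT1 in the rat, together with the proteins that prepare and load its peptides. All probes whose gene name began with RT1-, either in the scanner files or as the current symbol of the same RefSeq transcript, were taken along with the probes for B2m, Tap1, Tap2, Tapbp, Psmb8, Psmb9, Psmb10, Cd74 and Ciita. They came to 61 of the 41012 probes on the array and carried 43 gene names. Class I heavy chains accounted for 36 probes and 26 names, class II chains for 13 probes and 8 names, B2m for 4 probes, peptide loading and proteasome genes for 6 probes, and Cd74 and Ciita for 1 probe each. The rule used gene names alone, but it was set with earlier results of these data known.

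Male rats of the WHP strain, bred for high ethanol preference, were compared with male rats of the WLP strain, bred for low preference. All rats were alcohol-naive, and their age is not given in the sources used here. RNA came from 3 brain areas, namely nucleus accumbens, prefrontal medial cortex and hippocampus, and each sample pooled equal total RNA of 3 rats. Every area had 3 pool pairs of 1 WHP and 1 WLP pool, and each pair was hybridised to 2 two-colour arrays with the dyes swapped, giving 18 arrays and 9 pool pairs. Pool pairs of an area are biological replicates by their labels. It is not stated whether the same rats gave tissue for several areas. If they did, the 9 pairs are not independent and p-values over them may be too small. A log2 ratio below is the signal of the WHP pool over that of the WLP pool of a pair, averaged over its 2 arrays, so a value of 1 is a doubling in WHP.

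MHC class I molecules carry peptides from inside the cell to its surface, where CD8 T cells and natural killer cells read them. Their heavy chain folds around the light chain beta-2-microglobulin (B2m), the immunoproteasome subunits Psmb8, Psmb9 and Psmb10 cut the peptides, the Tap1-Tap2 transporter pumps them into the endoplasmic reticulum, and tapasin (Tapbp) helps to load them. Class II molecules, held by the invariant chain Cd74 until they reach endosomes, present taken-up proteins to CD4 T cells. In the brain they are known mainly from microglia, from macrophages along vessels and in the meninges, and from the choroid plexus, while class I is also found in neurons and endothelium.

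The probe sequences that carry the strain differences are shown here as the scanner files give them, 5′ to 3′, since many class I genes are near copies of each other. The probes of RT1-EC2 (A_44_P196401), RT1-T24-1 (A_44_P187530) and RT1-M3-1 (A_43_P12333), with that of RT1-CE3 (A_44_P274061), are the 4 that passed the test. RT1-CE2 (A_44_P107372) is set after RT1-CE3, and RT1-CE12 (A_44_P313661) after RT1-CE1 (A_44_P513029), because their probes overlap. Capitals mark the bases that differ from the overlapping partner.
RT1-EC2: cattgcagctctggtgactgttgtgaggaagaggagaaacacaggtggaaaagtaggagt
RT1-T24-1: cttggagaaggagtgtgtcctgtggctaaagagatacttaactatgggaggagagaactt
RT1-M3-1: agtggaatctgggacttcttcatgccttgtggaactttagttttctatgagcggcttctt
RT1-CE3: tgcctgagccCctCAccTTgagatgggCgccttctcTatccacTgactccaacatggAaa
RT1-CE2: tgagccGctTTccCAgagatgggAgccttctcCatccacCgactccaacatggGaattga
RT1-CE1: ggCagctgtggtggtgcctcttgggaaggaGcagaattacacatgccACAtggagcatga
RT1-CE12: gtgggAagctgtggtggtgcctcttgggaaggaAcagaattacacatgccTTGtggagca

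On the rn4 build the files place the RT1-T24-1 probe at chr20:2921850-2921909 (plus strand) and the RT1-M3-1 probe at chr20:1412672-1412731 (minus strand). The RT1-CE3 probe lies at chr20:3552938-3553124 (minus strand), a span longer than its 60 bases, so it crosses a gap in the genome such as an intron. The files give no chromosome for the RT1-EC2 probe, and an rn4 annotation of exons was not used here. Among the member probes, 21 pairs shared at least 80% of the bases over an overlap of 30 or more, so a class I value belongs to the probe and may be shared by near copies. The symbols RT1-EC2 and, for 1 probe, RT1-Cl have no current match in RefSeq. The accession of the RT1-T24-1 probe now carries the symbol RT1-T24-3, and that of the RT1-N1 probe the symbol RT1-N2.

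Array medians of the spot signal ranged from 78.15 to 208.7 for Cy3 and from 133.1 to 302.7 for Cy5, and no member was saturated. Detection in an area required that the scanner marked a probe as well above background in the same strain on 4 or more of 6 arrays. Dye-swapped arrays of a pair correlated over detected probes at 0.30 or more in 7 pairs, but at 0.04 in accumbens pair 3 and at -0.00 in hippocampus pair 2. Over the member probes alone, the same correlation was 0.72 in accumbens pair 3 and 0.58 in hippocampus pair 2. Accumbens and prefrontal pairs of the same number shared a slide in a first scanning session, and all hippocampal arrays lay on slides 4 and 5 of another session, so area and session cannot be told apart in hippocampal levels. The strain ratios of an area all lie within 1 session. Of 10 striatal marker genes the mean level was 3.39 ± 0.33 in the accumbens and 3.24 ± 0.66 in the arrays labelled prefrontal medial cortex (log2 above the array median, SD over 6 arrays), against 1.76 ± 0.22 in the hippocampus. The 9 cortical markers stood at 0.51 ± 0.11, 2.06 ± 0.50 and 2.30 ± 0.21, so the prefrontal arrays carried both cortical and striatal signal. The 9 hippocampal markers stood at 0.50 ± 0.07, 0.55 ± 0.13 and 1.01 ± 0.17.

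Most of the antigen presentation machinery was measurable in every area. Of the 61 probes, 50 were detected in the accumbens, 48 in the prefrontal cortex and 54 in the hippocampus, and 47 in all 3. All probes for B2m, Tap1, Tap2, Tapbp, Psmb8, Psmb9 and Psmb10 were detected everywhere. The 7 probes detected in no area were those for RT1-M2, RT1-T24-2, RT1-DOa, RT1-DOb and Ciita, the class II transactivator, with 1 of 2 probes each for RT1-CE5 and RT1-Ba. RT1-M10-1, RT1-M4 and the other RT1-Ba probe were detected in the hippocampus alone among the areas. RT1-DOa and RT1-DOb form a chaperone that restrains peptide exchange on class II, and RT1-Ba is a class II alpha chain.

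Within single areas no member differed between the strains past the test (limma, Benjamini-Hochberg adjusted over all detected probes, threshold 0.05), where 0.252% of all probes passed in the accumbens, 0.0905% in the prefrontal cortex and 0.25% in the hippocampus. At an unadjusted limma p under 0.05 there were 9 of 50 members in the accumbens (18%, against 16.3% of all detected probes), 5 of 48 in the prefrontal cortex (10.4% against 8.45%) and 16 of 54 in the hippocampus (29.6% against 6.68%). Of those 16, 14 were higher in WHP (25.9% against 3.38%), and 2 were lower (3.7% against 3.3%). In the hippocampus 25 members were above 0 in all 3 pool pairs (46.3% against 17.2%) and 7 below 0 in all 3 (13% against 20.8%). The same counts were 13 (26% against 14.2%) and 2 (4% against 15%) in the accumbens. In the prefrontal cortex they were 3 (6.25% against 14.3%) and 4 (8.33% against 14.5%). No member's strain ratio differed between areas past the test, nor did any of all probes, with 0 of 47 members at an unadjusted limma p under 0.05 for accumbens against prefrontal cortex (3.33% of all probes), 1 of 50 for accumbens against hippocampus (2%, against 8.63%) and 2 of 48 for prefrontal cortex against hippocampus (4.17%, against 3.6%).

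Over the mean of the 3 areas, 4 of 47 members passed (8.51%, against 2.85% of 28377 probes), all of them class I heavy chains. RT1-T24-1 and RT1-M3-1 were higher in WHP (4.26%, against 1.35% of all probes called higher), and 1 RT1-EC2 probe and RT1-CE3 were lower (4.26% against 1.5%). At an unadjusted limma p under 0.05 there were 15 members higher in WHP (31.9% against 8.33%) and 3 lower (6.38% against 9.5%). At least 8 of the 9 pairs were above 0 in 10 members (21.3% against 5.86%) and below 0 in 3 (6.38% against 6.66%). The count of 4 depended on single pool pairs: it was 0 without prefrontal pair 3 or hippocampus pair 1, 1 without prefrontal pair 2 or hippocampus pair 2, 2 without accumbens pair 3 or hippocampus pair 3, and 7 without prefrontal pair 1. It was also 0 with the replicate number of the pairs as a block across areas.

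The largest shift was at RT1-EC2 A_44_P196401, a class I gene that the files list under a symbol without a current RefSeq match. Its log2 ratio was 0.07, -0.61 and -1.70 in accumbens pairs 1 to 3, -0.88, -0.74 and -0.51 in the prefrontal pairs, and -0.99, -1.07 and -0.48 in the hippocampal pairs. WHP was lower in 8 of 9 pairs, and accumbens pair 1 was the exception. The mean over the areas was -0.77 (SE 0.16, n = 9 pool pairs, limma adjusted p = 0.0424), which is a 1.70-fold lower signal in WHP. The probe sits on the array in 10 spots. The 2 dye-swapped arrays of a pair differed more in some pairs than in others, with -0.41 and -1.35 in prefrontal pair 1 and -1.39 and -0.75 in hippocampus pair 2, against 0.06 and 0.08 in accumbens pair 1.

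The pools behind that ratio differed in spread by strain in the accumbens and the hippocampus. In log2 units above the array median, the WHP pools stood at 0.83, 0.86 and 0.69 in the accumbens, and the WLP pools at 0.77, 1.48 and 2.38. In the hippocampus the WHP pools stood at 0.97, 0.83 and 0.85, and the WLP pools at 1.99, 1.92 and 1.32. WHP pools of these areas lay close together, while WLP pools ranged widely and overlapped with WHP in accumbens pool 1. In the prefrontal cortex the strains did not overlap either, with WHP at 0.32, 0.74 and 0.49 and WLP at 1.20, 1.51 and 1.02. The spread was similar there (SD 0.21 in WHP and 0.25 in WLP). The other 3 RT1-EC2 probes showed no such difference. Their means over the areas were -0.01 (A_44_P313652), -0.06 (A_44_P324707) and 0.15 (A_44_P390172), none past the test (limma adjusted p = 0.940, 0.776 and 0.489). The 4 RT1-EC2 probes spread over 0.29 to 1.58 within a pair, against 0.04 to 0.19 for the 4 probes of B2m. The comparison is unlike, since each RT1-EC2 probe was designed on a different transcript, while all B2m probes share 1. The files place A_44_P390172 at chr20:3595651-3595710, beside the RT1-CE1 probe, so probes under the RT1-EC2 symbol may read different genes. Whether sequence differences between the strains under a probe moved any class I ratio was not tested.

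RT1-CE3, a gene of the class I C/E cluster, was lower in WHP in all 9 pairs. Its ratio was -0.01, -0.26 and -0.88 in the accumbens, -0.56, -0.46 and -0.28 in the prefrontal cortex, and -0.51, -0.59 and -0.37 in the hippocampus. The first accumbens pair was near 0 and the rest were clearly below it. The mean was -0.43 (SE 0.08, limma adjusted p = 0.0292), with mean levels of 1.45 ± 0.18 in WHP and 1.83 ± 0.29 in WLP in the accumbens (SD, n = 3 pools) and 2.09 ± 0.17 against 2.59 ± 0.26 in the hippocampus. The prefrontal levels were 1.30 ± 0.30 and 1.74 ± 0.22.

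RT1-T24-1 was higher in WHP in all 9 pairs. Its ratio was 0.05, 0.49 and 0.56 in the accumbens, 0.20, 0.43 and 0.36 in the prefrontal cortex, and 0.51, 0.47 and 0.14 in the hippocampus. The lowest value was again accumbens pair 1. The mean was 0.35 (SE 0.06, limma adjusted p = 0.0228, 1.28-fold), at low levels of 0.89 ± 0.05 in WHP and 0.53 ± 0.25 in WLP in the accumbens, 0.78 ± 0.21 and 0.46 ± 0.12 in the prefrontal cortex, and 0.46 ± 0.20 and 0.11 ± 0.09 in the hippocampus (SD, n = 3).

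RT1-M3-1 belongs to the M region, and its mouse counterpart H2-M3 is known for presenting peptides with a formylated first residue. Its ratio was 0.37, 0.23 and 0.31 in the accumbens, -0.04, 0.40 and 0.24 in the prefrontal cortex, and 0.26, 0.15 and 0.26 in the hippocampus. Only prefrontal pair 1 lay below 0. The mean was 0.24 (SE 0.04, limma adjusted p = 0.0256, 1.18-fold). Its level in WHP and WLP was 4.06 ± 0.15 and 3.77 ± 0.19 in the accumbens, 3.45 ± 0.62 and 3.26 ± 0.41 in the prefrontal cortex, and 4.52 ± 0.26 and 4.31 ± 0.32 in the hippocampus.

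The 4 ratios kept their sign when any pool pair was left out, but not their call. RT1-CE3 passed in 4 of the 9 fits without 1 pair (-0.50 to -0.35, limma adjusted p = 0.0121 to 0.0941, not passing without prefrontal pair 2 or 3 or any hippocampal pair), and RT1-EC2 in 2 (-0.90 to -0.61, adjusted p = 0.0112 to 0.131, passing without accumbens pair 1 or 3). RT1-T24-1 passed in 4 (0.32 to 0.41, limma adjusted p = 0.00685 to 0.0828, not without accumbens pair 3, prefrontal pair 2 or 3, or hippocampus pair 1 or 2), and RT1-M3-1 in 4 (0.21 to 0.28, adjusted p = 0.00439 to 0.0926, not without accumbens pair 3, prefrontal pair 3 or any hippocampal pair). Without accumbens pair 3 and hippocampus pair 2 together, whose arrays stood apart, RT1-CE3 passed at -0.33 (limma adjusted p = 0.0456), and RT1-EC2 stood at -0.57 (adjusted p = 0.0768), RT1-T24-1 at 0.31 (0.136) and RT1-M3-1 at 0.25 (0.124).

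**Figure D1:**
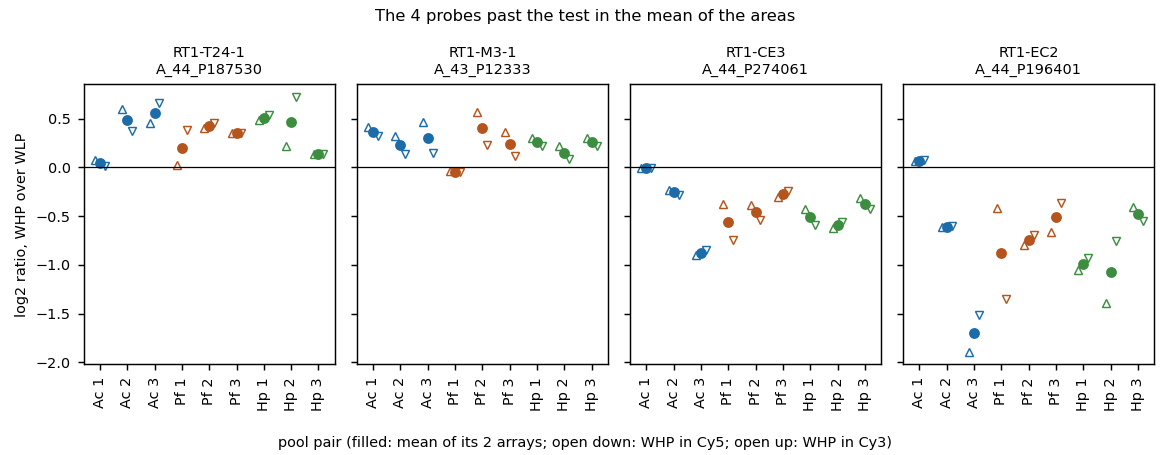
Log2 ratio of WHP over WLP (vertical axis) for the 4 class I probes past the test in the mean of the areas, with the 9 pool pairs on the horizontal axis, filled circles for the mean of a pair's 2 arrays and open triangles for the single arrays (pointing down with WHP in Cy5). RT1-EC2 and RT1-CE3 lie below 0 in 8 and 9 of 9 pairs, and RT1-T24-1 and RT1-M3-1 above 0 in 9 and 8.

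Other class I probes were low in some of the same pairs and near 0 or above it in others. The probes for RT1-A2 (A_44_P184753), RT1-CE2, RT1-CE3, RT1-CE16 and RT1-EC2 (A_44_P196401) were between -1.70 and -0.88 in accumbens pair 3 and between -0.88 and -0.56 in prefrontal pair 1, but between -0.01 and 0.32 in accumbens pair 1, a grouping made after their values were seen. The RT1-A2 probe matches that of RT1-CE16 at 35 of 38 shared bases, that of RT1-CE3 at 36 of 40 and that of RT1-CE2 at 38 of 44, while the RT1-EC2 probe is in none of the near-identical pairs. RT1-A2 belongs to the classical class I genes of the RT1-A region. RT1-CE16 stood at 0.32, -0.26 and -1.27 in the accumbens, -0.85, -0.19 and -0.12 in the prefrontal cortex, and -0.23, -0.48 and -0.24 in the hippocampus. It was below 0 in 8 of 9 pairs, with a mean of -0.37 (SE 0.15) that did not pass (limma adjusted p = 0.240).

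Overlapping probes of near copies were set side by side by their ratios. The RT1-CE3 and RT1-CE2 probes match at 47 of 56 shared bases, and the RT1-CE3 ratio was the lower of both in 7 of 9 pairs, by 0.24 on average. The RT1-CE3 probe and an RT1-CE4 probe (A_44_P440514) match at 35 of 42 bases, and RT1-CE3 was lower in 9 of 9 pairs, by 0.44. RT1-CE4 itself had a mean of 0.00 at that probe. The RT1-CE1 and RT1-CE12 probes match at 52 of 57 bases and ran in parallel: RT1-CE1 was at 0.20, 0.17 and -0.29 in the accumbens, -0.40, 0.56 and 0.16 in the prefrontal cortex, and 0.61, 0.32 and 0.15 in the hippocampus, and was above RT1-CE12 in 9 of 9 pairs by 0.09 on average. As a gauge, 2 B2m probes with 41 bases in common differed by 0.02 on average, with A_43_P11442 the higher in 2 of 9 pairs. Whether such gaps separate genes was not tested, and RT1-CE3 was picked by its low ratio in these same data.

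Among class I probes that did not pass, RT1-N1 came nearest. Its ratio was 0.05, 0.18 and 0.49 in the accumbens, 0.17, 0.24 and 0.11 in the prefrontal cortex, and 0.54, 0.69 and 0.11 in the hippocampus, above 0 in 9 of 9 pairs, with a mean of 0.29 (SE 0.06, limma adjusted p = 0.0605). The RT1-S3 probe A_44_P454420 was at 0.31, 0.25 and 0.48, then -0.05, 0.22 and 0.58, then 0.60, -0.17 and 0.09 in the areas in the same order, with a mean of 0.26 (SE 0.09, limma adjusted p = 0.165). The other RT1-S3 probe (A_44_P128151) had a mean of -0.02 (SE 0.10). RT1-N3 (mean 0.20, limma adjusted p = 0.0998) and RT1-T18 (A_44_P358361, mean 0.16, adjusted p = 0.118) were above 0 in 7 and 8 of 9 pairs. The RT1-N3 probe matches that of RT1-N1 at 30 of 32 shared bases, so they may not be separate readings. Over the 28 class I probes tested in the mean, values ran from -0.77 to 0.35.

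**Figure D2:**
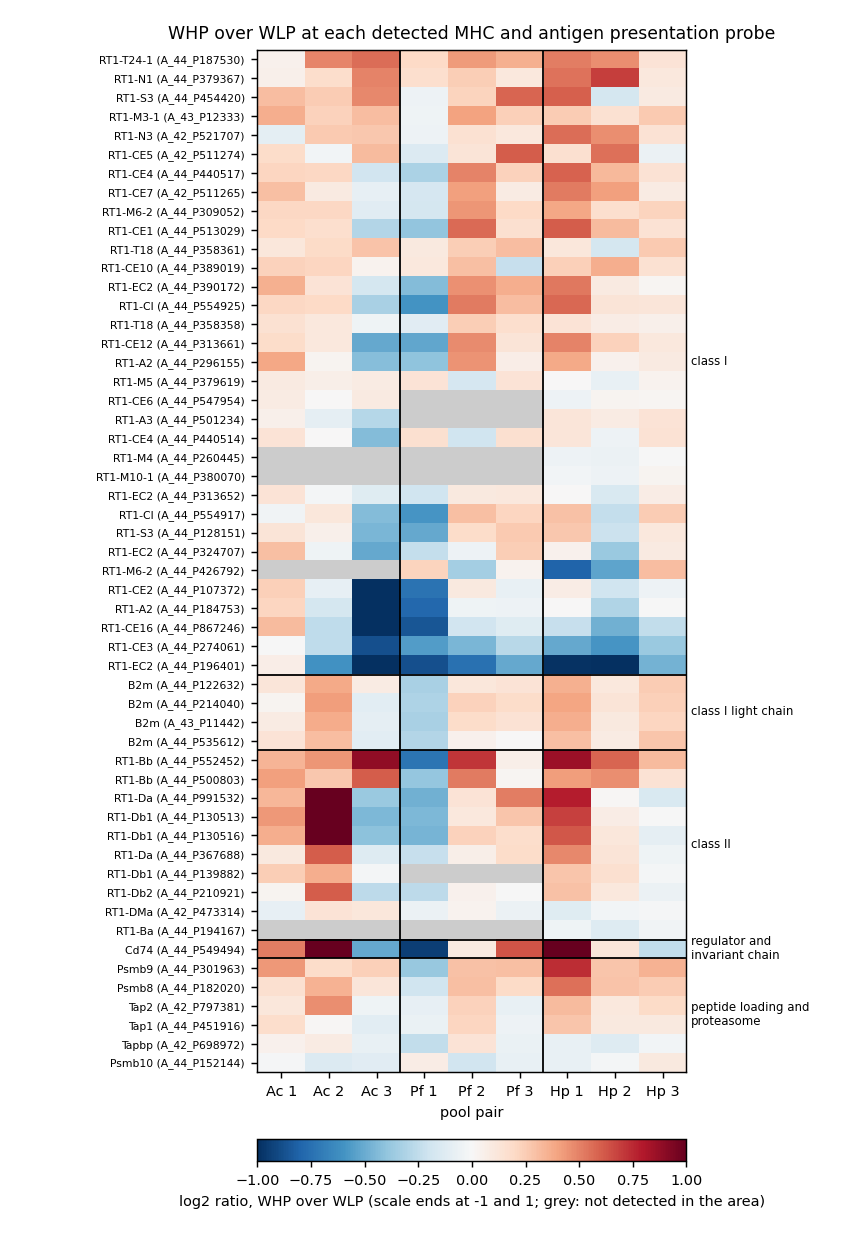
Log2 ratio of WHP over WLP for each member probe (vertical axis) in each of the 9 pool pairs (horizontal axis), grouped by role, with colour for the ratio on a scale that ends at -1 and 1, and grey where a probe was not detected in the area. Prefrontal pair 1 is low for most probes, with a median of -0.28 over 48 members. The highest medians are 0.29 in hippocampus pair 1, 0.20 in prefrontal pair 2, 0.18 in accumbens pair 2 and 0.17 in accumbens pair 1.

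B2m, the light chain that class I heavy chains need to reach the surface, was measured by 4 probes that ran together. A_43_P11442 stood at 0.08, 0.37 and -0.09 in the accumbens, -0.32, 0.18 and 0.14 in the prefrontal cortex, and 0.36, 0.10 and 0.21 in the hippocampus. In accumbens pair 3 its dye-swapped arrays disagreed, at 0.26 and -0.45. A_44_P122632 and A_44_P214040 also changed sign between those arrays, and A_44_P535612 was below 0 on both. All 4 probes were below 0 in prefrontal pair 1 and above 0 in every hippocampal pair. Their means over the areas were 0.08 to 0.14 and did not pass (limma adjusted p = 0.253 to 0.442). The level of A_43_P11442 in WHP and WLP was 6.85 ± 0.15 and 6.73 ± 0.14 in the accumbens, 6.29 ± 0.65 and 6.30 ± 0.38 in the prefrontal cortex, and 7.19 ± 0.29 and 6.98 ± 0.30 in the hippocampus (SD, n = 3), so the strains overlapped.

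Of the immunoproteasome subunits, which replace the constitutive catalytic subunits under interferon, Psmb8 and Psmb9 were above 0 in 8 of 9 pairs, though neither passed. Psmb8 was at 0.16, 0.35 and 0.12 in the accumbens, -0.20, 0.30 and 0.19 in the prefrontal cortex, and 0.55, 0.28 and 0.26 in the hippocampus, with a mean of 0.22 (SE 0.06, limma adjusted p = 0.0836). Psmb9 was at 0.43, 0.18 and 0.24, then -0.38, 0.29 and 0.30, then 0.74, 0.28 and 0.35, with a mean of 0.27 (SE 0.08, limma adjusted p = 0.125). For both, prefrontal pair 1 was the exception. Psmb10, the other subunit, was at -0.01, -0.14 and -0.12, then 0.07, -0.20 and -0.07, then -0.07, -0.02 and 0.09, with a mean of -0.05 (SE 0.03).

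The means of the transporter genes lay somewhat above 0 and that of Tapbp slightly below. Tap2 was at 0.11, 0.46 and -0.04 in the accumbens, -0.08, 0.23 and -0.07 in the prefrontal cortex, and 0.32, 0.11 and 0.19 in the hippocampus, with a mean of 0.14 (SE 0.06, limma adjusted p = 0.254). Tap1 had a mean of 0.07 (SE 0.04). Tapbp was at 0.04, 0.08 and -0.08, then -0.25, 0.14 and -0.07, then -0.08, -0.13 and -0.03, with a mean of -0.04 (SE 0.04). None of these 3 genes passed.

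Class II chains varied between pool pairs more than they differed between strains. Of 8 class II probes tested in the mean none passed, with 2 at an unadjusted limma p under 0.05 (17.8% of all probes were), both for RT1-Bb, the beta chain of the molecule that corresponds to HLA-DQ in humans. RT1-Bb A_44_P552452 was at 0.34, 0.44 and 0.88 in the accumbens, -0.73, 0.72 and 0.06 in the prefrontal cortex, and 0.86, 0.58 and 0.32 in the hippocampus. Its mean was 0.39 (SE 0.13, limma adjusted p = 0.181), and that of the other RT1-Bb probe (A_44_P500803) was 0.27 (SE 0.09, limma adjusted p = 0.140). Both were above 0 in 8 of 9 pairs, with prefrontal pair 1 below.

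The chains of the HLA-DR counterpart, RT1-Da (alpha) and RT1-Db1 (beta), ran with Cd74 from pair to pair. Cd74 was at 0.51, 1.68 and -0.51 in the accumbens, -0.94, 0.09 and 0.63 in the prefrontal cortex, and 1.15, 0.12 and -0.25 in the hippocampus. RT1-Da A_44_P991532 was at 0.33, 1.28 and -0.37, then -0.48, 0.14 and 0.51, then 0.79, 0.01 and -0.15. RT1-Db1 A_44_P130513 was at 0.43, 1.07 and -0.45, then -0.45, 0.11 and 0.28, then 0.69, 0.08 and -0.00. The same pairs were high (accumbens 2, hippocampus 1) and the same were low (accumbens 3, prefrontal 1) for all 3 genes. RT1-Bb went against them in accumbens pair 3 and hippocampus pair 3, where both its probes were above 0 and Cd74, RT1-Da and RT1-Db1 below. The means over the areas were 0.28 for Cd74 (SE 0.25, limma adjusted p = 0.612), 0.23 for RT1-Da (SE 0.18, adjusted p = 0.542) and 0.19 for RT1-Db1 (SE 0.15, adjusted p = 0.550).

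In levels, hippocampal WHP pools stood at 3.16, 2.13 and 1.96 for Cd74 and the WLP pools at 2.03, 2.02 and 2.20, so 1 WHP pool stood out and the rest overlapped. In the accumbens the means were 1.95 ± 0.48 in WHP and 1.40 ± 0.64 in WLP, and in the prefrontal cortex 1.25 ± 0.56 and 1.34 ± 0.45 (SD, n = 3). RT1-DMa, a chain of the molecule that exchanges class II peptides, stayed within -0.12 and 0.13 in every pair, with a mean of -0.01 (SE 0.03, limma adjusted p = 0.911). RT1-Db2 had a mean of 0.05 (SE 0.08).

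Markers of meninges and fibroblasts were high and low in many of the same pairs. The median ratio of the 11 genes, all detected in every area, was 1.30, 2.51 and -0.98 in the accumbens, -0.96, -0.23 and 0.91 in the prefrontal cortex, and 1.10, -0.02 and 0.55 in the hippocampus. All 11 were above 0 on average in the accumbens and the hippocampus and 5 of 11 in the prefrontal cortex, and none passed. The list and Cd74 were on opposite sides of 0 in prefrontal pair 2 and in hippocampus pairs 2 and 3, and on the same side in the other 6 pairs. The mean level of the list in accumbens pools ranged from 2.46 to 3.97 in WHP and from 1.31 to 3.24 in WLP. Ranges in the hippocampus were 2.54 to 3.40 and 2.29 to 2.62, and in the prefrontal cortex 1.73 to 2.71 and 1.70 to 2.65. Its part in the class II ratios was not tested.

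Of 6 perivascular macrophage markers, 4 were detected in the accumbens, where Cd163 and F13a1 were not, and their median ratio was 0.33, 0.63 and -0.15. In the prefrontal cortex 3 were detected, at -0.31, -0.19 and 0.28, and in the hippocampus all 6, at -0.00, -0.01 and 0.02. The 10 choroid plexus markers were at 0.54, -0.20 and -0.46 in the accumbens (8 detected), -0.38, 2.35 and 0.07 in the prefrontal cortex (7 detected), and 1.92, 0.15 and 0.61 in the hippocampus (10 detected). The ranges of their mean level in hippocampal pools were 2.76 to 3.69 in WHP and 1.57 to 2.62 in WLP. Prefrontal pair 2, with the highest choroid plexus median, had Cd74 at 0.09, and hippocampus pair 1, with the next highest, had Cd74 at 1.15. The part of either list in the class II ratios was not tested.

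Microglial markers stayed closer to 0. The median of 14 genes was -0.28, 0.12 and -0.12 in the accumbens, -0.13, -0.08 and -0.01 in the prefrontal cortex, and 0.02, 0.07 and -0.01 in the hippocampus. In the mean of the areas 1 of the 14 passed, where 2.85% of all probes did. It was C1qa, a complement gene, lower in WHP (-0.18, SE 0.04, limma adjusted p = 0.0497). That call lies at the threshold and was not rerun under other processing. The mean level of the microglial markers lay between 2.23 and 3.07 in every pool. Of 8 T cell markers, Cd8a, Cd4 and Cd2 were detected in no area, and of 6 B cell markers at most 3 were detected, in the hippocampus. In such whole-tissue pools, fewer cells of a type and less RNA per cell cannot be told apart.

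**Figure D3:**
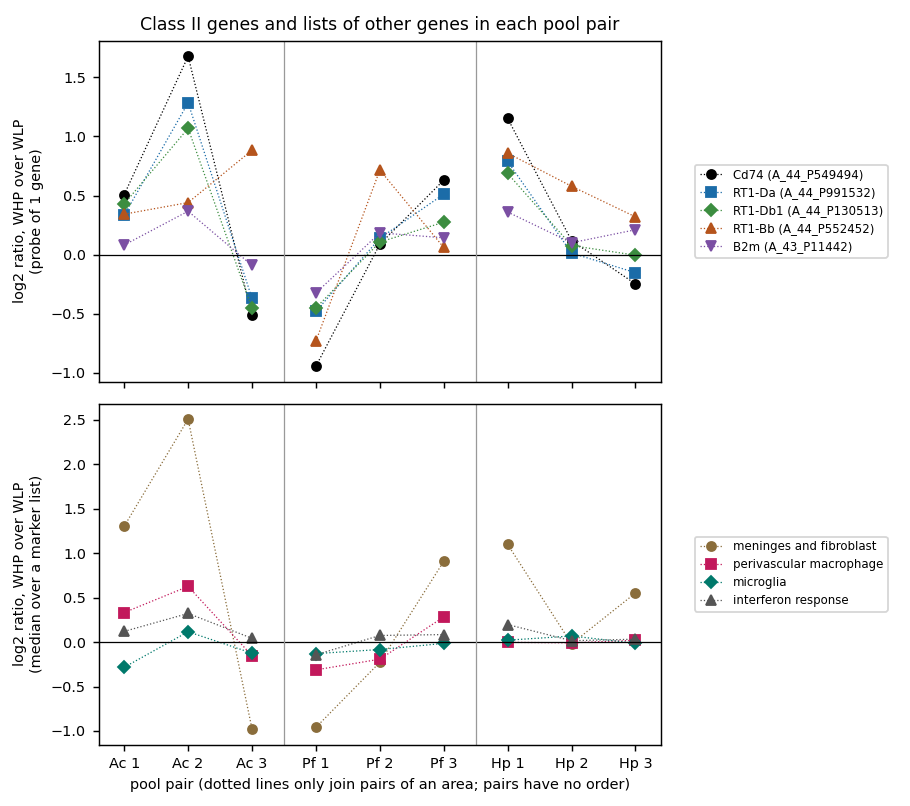
Log2 ratio of WHP over WLP (vertical axis) in the 9 pool pairs (horizontal axis) for probes of Cd74, RT1-Da, RT1-Db1, RT1-Bb and B2m in the upper panel and for the medians of 4 gene lists in the lower. Cd74, RT1-Da and RT1-Db1 are high at accumbens pair 2 (1.68 for Cd74) and low at prefrontal pair 1 (-0.94), with the meninges and fibroblast median at 2.51 and -0.96 in the same pairs, while the microglial median stays between -0.28 and 0.12.

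Set side by side by class, the median ratio of class II probes was 0.35 in the accumbens (9 of 9 above 0), -0.01 in the prefrontal cortex (4 of 8) and 0.20 in the hippocampus (8 of 10). That of class I probes was 0.04 (17 of 30), 0.06 (19 of 29) and 0.10 (21 of 33), and that of all detected probes was 0.00, 0.00 and -0.00. By pool pair, the class II medians were 0.33, 0.60 and -0.13 in the accumbens, -0.42, 0.12 and 0.12 in the prefrontal cortex, and 0.45, 0.11 and -0.03 in the hippocampus. The class I medians were 0.19, 0.10 and -0.18, then -0.20, 0.24 and 0.16, then 0.16, 0.03 and 0.09. Neither class was above the other throughout: class I minus class II was -0.15, -0.51 and -0.05 in the accumbens, 0.22, 0.12 and 0.04 in the prefrontal cortex, and -0.29, -0.08 and 0.12 in the hippocampus. Without accumbens pair 2 the class II median of that area was -0.01, and without hippocampus pair 1 that of the hippocampus was 0.03.

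Other genes of the pathways showed few strain differences. Of 13 genes that act with class II (the promoter factors Rfx5, Rfxank and Rfxap, cathepsins, costimulatory molecules), 11 were tested in the mean. None passed (limma, 3 at an unadjusted p under 0.05, where 17.8% of all probes were). Cd80 was detected in no area, and Cd86 in the hippocampus alone. Of 19 genes that act with class I (chaperones such as Canx, proteasome subunits, interferon gamma receptor chains), 16 were tested and none passed (2 at an unadjusted p under 0.05). Ctss, the cathepsin that trims the invariant chain, had a mean of -0.21 (limma adjusted p = 0.115) and the chaperone Canx of -0.16 (adjusted p = 0.114). Most genes of both lists lay slightly above 0 instead. They were 9 of 11 for class II (median 0.02) and 13 of 16 for class I (median 0.05). Of 20 interferon response genes, which share inducers with the MHC, 16 were tested in the mean and 3 passed, where 2.85% of all probes did. Irf7, a factor that amplifies the interferon response, was higher in WHP (0.36, SE 0.06, limma adjusted p = 0.0203), as was Ifi27 (0.29, SE 0.05, adjusted p = 0.0288). The antiviral GTPase Mx2 was lower in WHP (-0.52, SE 0.04, limma adjusted p = 0.000366) and passed in the accumbens and the hippocampus too. The median of that list was 0.06, with 12 of 16 genes above 0.

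Between areas, most members detected in all 3 areas had more signal in the accumbens than in the prefrontal cortex, which lay on the same slides. The difference in level was above 0 for 39 of 47 members (83%, against 52.2% of 28377 probes), with a median of 0.26 log2 units against 0.01. It was above 0 for 21 of 28 class I probes (median 0.25), all 4 B2m probes (0.48), 7 of 8 class II probes (0.17) and all 6 loading and proteasome probes (0.35). Member probes outside these 47, which were dim, all lay lower in the accumbens, such as RT1-M2 (-0.28), RT1-DOa (-0.32) and Ciita (-0.19). The share over all probes was not matched for signal strength, and a dependence of the difference on signal strength was not tested. The size of the difference leaned on prefrontal pair 1, which was low in both strains for many members (B2m A_43_P11442 at 5.55 in WHP and 5.87 in WLP, against 6.51 to 6.69 in prefrontal pairs 2 and 3). Without that pair the difference was above 0 for 35 of 47 members (74.5%, against 41.3% of all probes), with a median of 0.15 against -0.06. Class I then had 19 of 28 (0.07), B2m 3 of 4 (0.18), class II 6 of 8 (0.17) and the loading and proteasome probes 6 of 6 (0.22). B2m A_43_P11442 went from 0.49 to 0.20, B2m A_44_P122632 from 0.26 to -0.02, Psmb10 from 0.31 to 0.01, and RT1-DMa from 0.17 to -0.13. Within slides 1, 2 and 3 the member median was 0.49, 0.18 and 0.14 (35, 37 and 31 of 47 above 0), beside 0.23, -0.06 and -0.04 over all probes. The pool pairs of the 2 areas did not overlap, with the accumbens above, for 14 members (29.8% against 16.8%), and with the accumbens below for 1 (2.13% against 12.2%). B2m A_43_P11442 was at 6.79 in the accumbens, 6.30 in the prefrontal cortex and 7.09 in the hippocampus. Tap2 was at 1.41, 0.73 and 2.07, Cd74 at 1.67, 1.30 and 2.25, and RT1-M3-1 at 3.91, 3.36 and 4.41. Hippocampal levels were the highest for these 4 genes, and 12 of 47 members were higher in the accumbens than in the hippocampus, but all probes shifted too (median -0.13, members -0.24) and the session differed. RT1-CE7 went the other way, at 0.46 in the accumbens, 0.22 in the prefrontal cortex and -0.53 in the hippocampus. RT1-M5 stood at 0.21, 0.21 and 1.18.

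**Figure D4:**
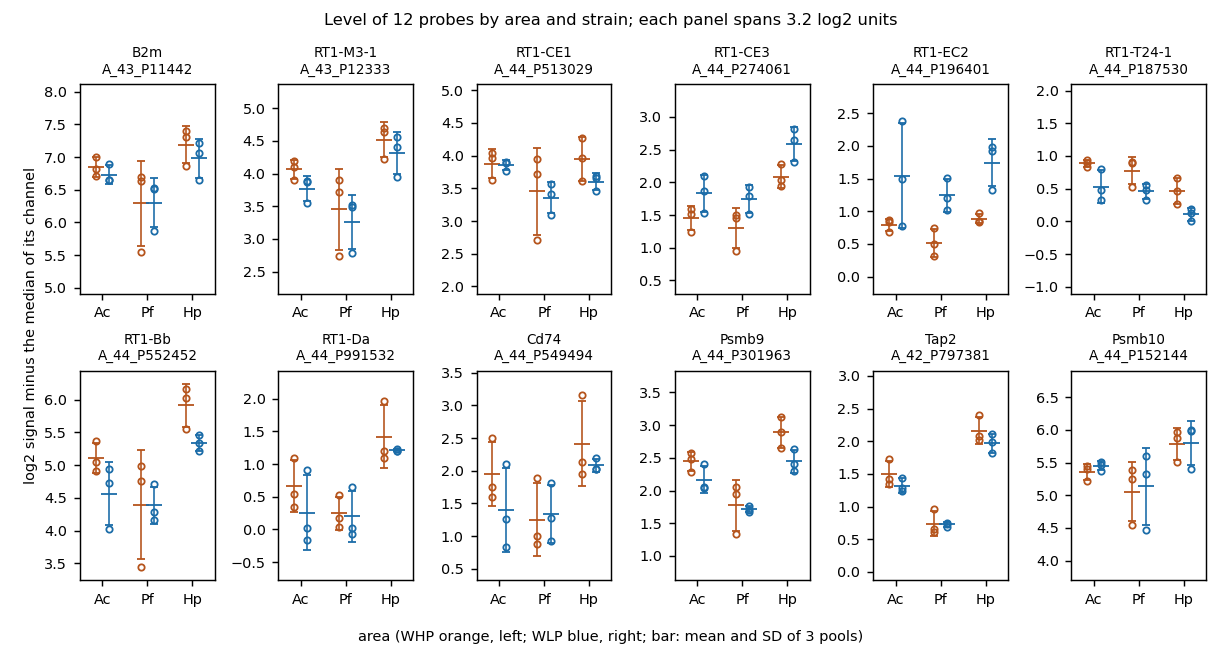
Level of 12 member probes (vertical axis, log2 signal minus the median of its channel) in WHP (orange) and WLP (blue) pools of each area (horizontal axis), with 1 open point per pool and bars for the mean and SD of 3 pools. The RT1-EC2 probe separates the strains in the prefrontal cortex and the hippocampus, while B2m and Cd74 overlap, and levels of different probes are not comparable with each other.

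Promoters of the members were read from RefSeq (GRCr8, 250 bases before to 50 after the start of a gene), which held 36 of the 43 genes. Class II promoters are known for an X box, bound by the RFX factors, followed by a Y box, an inverted CCAAT bound by NF-Y, to which Ciita is recruited. The letters GATTGG for the Y box and AGCAAC for the core of the X box were searched on both strands. GATTGG lay in all 8 class II promoters and 10 of 20 class I promoters, against 14.8% of 33469 promoters, and AGCAAC in 5 of 8 and 4 of 20, against 14.7%. Both motifs were in 2.09% of all promoters.

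The promoter of RT1-Da holds both, and that of RT1-Bb holds GATTGG without the exact AGCAAC. They are shown as an example of each arrangement, at chr20:4515165-4515464 (plus strand) and chr20:4604069-4604368 (minus strand), with the motif letters in capitals.
RT1-Da: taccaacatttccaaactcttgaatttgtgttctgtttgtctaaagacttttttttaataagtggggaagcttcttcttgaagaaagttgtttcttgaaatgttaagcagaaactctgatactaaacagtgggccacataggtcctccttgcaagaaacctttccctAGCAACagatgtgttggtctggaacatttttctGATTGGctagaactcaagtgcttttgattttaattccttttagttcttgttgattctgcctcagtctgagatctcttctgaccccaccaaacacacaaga
RT1-Bb: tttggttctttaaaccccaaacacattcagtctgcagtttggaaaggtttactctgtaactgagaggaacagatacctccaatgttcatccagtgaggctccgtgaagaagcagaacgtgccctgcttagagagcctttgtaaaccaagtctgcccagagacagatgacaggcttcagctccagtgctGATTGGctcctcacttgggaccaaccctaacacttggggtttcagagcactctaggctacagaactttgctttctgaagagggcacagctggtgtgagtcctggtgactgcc

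In RT1-Da the motifs start 83 and 50 bases before the gene start, 33 bases apart. The same order on the gene's strand, with 25 to 40 bases from start to start, a window set after the member promoters were seen, was found in 12 of 33469 promoters (0.0359%), and 5 of the 12 were those of RT1-DOa, RT1-DOb, RT1-Da, RT1-Db1 and RT1-Db2. Another of the 12 was that of RT1-Ha, a class II name outside the members. Of the 5 member genes RT1-DOa and RT1-DOb were detected in no area, and no relation between these letters and the strain ratios was tested. The promoter of Cd74 held AGCAAC and no GATTGG in this window. The core of the interferon-stimulated response element, GAAA repeated after any 2 bases, lay in 5 of 6 promoters of loading and proteasome genes, against 3.92% of all. A match is a description of letters and not a measured binding site.

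**Figure D5:**
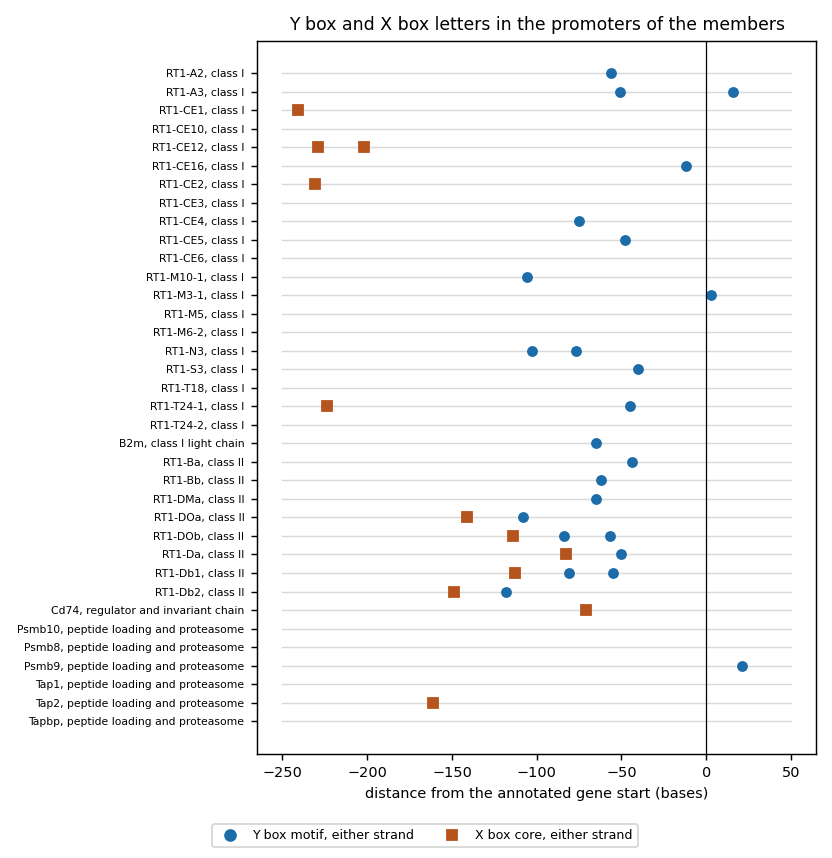
Positions of GATTGG (Y box, circles) and AGCAAC (X box core, squares) on either strand of member promoters, with distance from the gene start in bases on the horizontal axis and 1 line per gene. In 5 class II promoters AGCAAC lies 30 to 33 bases before GATTGG.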

How the data were processed

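The deposited spot intensities, foreground means and local background medians for each dye, are raw scanner values from Agilent Feature Extraction 10.10.1.1, per the file headers, with probe positions on rn4. The deposited value table, used as an alternative, holds log2 ratios whose normalization is not given in the sources used here; their sign is that of WHP over WLP. With limma 3.58.1 in R 4.3.3, signals were background-corrected (normexp, offset 50, which pulls ratios of dim spots towards 0) and loess-normalized within arrays. Control and non-uniform spots were left out. Means were taken over spots of 1 probe and then over both arrays of a pool pair. lmFit and eBayes were fitted to all detected probes with 1 coefficient per area (two-sided, n = 3 pool pairs an area, Benjamini-Hochberg, threshold 0.05), and tested on simulated data. Levels are normalized log2 signals minus the median of that channel's probes. Named with values per pair are members past a test and up to 3 probes per role with the largest positive and negative means; RT1-CE1, RT1-Db1 and probes of near copies were added after their values were seen. The members and lists were chosen with earlier results of these data known. Lists are described by counts and medians, with no test of a list.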

Additional observations from a re-analysis of the deposited data

How the results depend on the processing

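The direction of the 4 class I calls in the mean of the areas held in every alternative run for them, and the calls themselves less often: RT1-CE3 passed in 15 of 22, RT1-T24-1 in 14 of 22, RT1-M3-1 in 11 of 22 and RT1-EC2 in 8 of 21. The count of 4 members became 2 with the scanner's processed signals, 8 on arrays with WHP in Cy3 only, 0 with trend and robust variances, and 1 without the pool pairs whose dye-swapped arrays correlate under 0.1. Leaving out 1 pool pair gave 0 (without prefrontal pair 3 or hippocampus pair 1) to 7 (without prefrontal pair 1). The count was 2 without accumbens pair 3 or hippocampus pair 3, and 1 without prefrontal pair 2 or hippocampus pair 2. With the replicate number as a block it was 0 (limma adjusted p = 0.0524 for RT1-T24-1, 0.0702 for RT1-M3-1, 0.076 for RT1-CE3 and 0.0944 for RT1-EC2). Deviations of same-numbered pairs correlated at -0.381 to 0.166 between areas, and those of differently numbered pairs at -0.193 to 0.362. Such correlations also carry array noise, so they cannot decide whether same-numbered pools came from the same rats. With slide as a random block, chosen after seeing the data, the count was 3. In the accumbens 1 member, RT1-T24-1 (0.52, limma adjusted p = 0.0417), passed without accumbens pair 1, and leaving out other pairs gave 0. The class I median of the hippocampus, 0.105, was 0.175 with processed signals, 0.214 with 1 probe per gene, and 0.185 without the discordant pairs, with a range of 0.048 to 0.185 when 1 pair was left out. When 1 pair was left out, the class II median ranged from -0.011 to 0.349 in the accumbens (up to 0.586 over all alternatives), from -0.11 to 0.198 in the prefrontal cortex and from 0.03 to 0.336 in the hippocampus, and the class I median from -0.041 to 0.12 in the accumbens and from -0.04 to 0.223 in the prefrontal cortex. The number of members with a higher level in the accumbens than in the prefrontal cortex ranged from 35 to 41 and their median difference from 0.146 to 0.346, an alternative chosen after seeing the data. Of the genes near 0, 3 changed sign in the mean: RT1-DMa (0.013 on arrays with WHP in Cy3, 0.014 without accumbens pair 1, 0.003 without hippocampus pair 1, with a range of -0.021 to 0.014 when 1 pair was left out), Psmb10 (0.016 with WHP in Cy5) and Tapbp (0.037 with WHP in Cy3). The cause was not tested. Alternatives that leave an area on its own, or the slide as a fixed block in the first session, give no mean of the areas. Signal over background limits the members that were not detected in an area, which have no test there.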
